A study of Bombyx mori with 64 samples.

Results

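The body wall of the silkworm, Bombyx mori, was followed over 4 stages of metamorphosis on a one-colour array with 106 miRNA probes. The 8 arrays were chosen by their labels, from 64 arrays in the series, and hold 4 of its 32 RNA specimens. They came from fifth-instar day 7 larvae (BW_7dIL5), 0-hour spinning larvae (BW_0hSp), 0-hour prepupae (BW_0hPPu) and day 1 pupae (BW_1dPu). All 4 were unmanipulated animals of DaZao, a bivoltine strain fed on mulberry leaves, and each specimen mixed the sexes. The labels do not say how many animals a specimen holds. Each specimen was hybridized to a pair of replicate slides, a and b, with the same RNA, so a stage has n = 1. The gap between slides a and b shows the technical spread only, and a difference between any pair of stages has no p-value here.

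MicroRNAs are short RNAs that guide the silencing complex to messenger RNAs with matching sites, and so lower the amount or the translation of these messengers. At metamorphosis pulses of the steroid ecdysone, under the control of juvenile hormone, turn a larva into a pupa. In the body wall, which consists of epidermis, cuticle, muscle and attached cells, the epidermis separates from the larval cuticle and lays down that of the pupa, while larval muscles are broken down or remodelled. In Drosophila several miRNAs, among them let-7, miR-100 and miR-125, are known to accumulate in this window. The array carries its probes as SW-1 to SW-106, and a table that pairs these with miRNA names was not used here. The exception is SW-7, which is tied to miR-1, the muscle miRNA of animals from flies to mammals, because the study names miR-1 for the brightest larval signal and that signal is the one of SW-7. Some miRNAs have more than 1 probe and some probes were made for miRNAs of other species, so 2 probes with like profiles need not be different miRNAs. In a specimen of whole tissue, fewer cells of a type and less RNA per cell cannot be told apart.

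With only 1 probe tied to a name, no marker list could be set against the label of the tissue. The miR-1 probe alone did not set the body wall apart from the midgut. Its mean signals here and in the midgut were 23734 and 29534 in day 7 larvae, 60597 and 40680 in spinning larvae, and 41118 and 56389 in prepupae. The arrays of these tissues did not share a session at any of these stages. The spinning and prepupal body wall signals lay near the scanner ceiling, so the order of the tissues was not read from them. In the ranking of the probes, each stage was nearest to another body wall stage, and among the tissues of day 3 larvae to the male body wall (Spearman coefficients of 0.855 to 0.908 across probes, which are not independent and share their array). Prepupae were slightly nearer to the prepupal fat body (0.897) and midgut (0.893) than to the male body wall (0.892), and day 7 larvae were nearer to the pupal fat body (0.868) than to the male body wall (0.855). With each other the 4 body wall stages had coefficients of 0.885 to 0.945, the lowest for day 7 larvae with prepupae and the highest for spinning larvae with pupae.

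A scaled signal of 1000, the threshold the study used for expression, was reached by 31 probes in day 7 larvae, 43 in spinning larvae, 63 in prepupae and 50 in pupae. Of the 106 probes, 30 reached it at all 4 stages and 38 at none. No probe reached it in day 7 larvae only, 12 reached it for the first time in spinning larvae, 17 in prepupae only and 4 in pupae only. A signal of 10000 or more was shown by 7, 17, 19 and 14 probes in the order of the stages. The 10 brightest probes made up 61.3%, 56.8%, 50.7% and 55.9% of the summed signal. SW-7, SW-45, SW-46 and SW-68 were among these 10 at every stage.

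Some controls printed on the same arrays also differed between the stages. The control spots named blank, whose content is not stated, gave scaled signals of 99 and 127 on slides a and b of day 7 larvae, 1338 and 882 in spinning larvae, 3395 and 2307 in prepupae and 1696 and 3106 in pupae. In day 7 larvae all 31 probes at 1000 or more lay above them on both slides. That was so for 41 of 43 in spinning larvae, for 30 of 63 in prepupae and for 28 of 50 in pupae. None of the 17 probes that passed 1000 in prepupae only, and none of the 4 that passed it in pupae only, lay above the blank spots there. U6, a small nuclear RNA present in all cells, gave 15970 and 24224 in day 7 larvae and 27513 to 36298 at the later stages. The median probe gave 317 and 492 in day 7 larvae and 722 to 1307 later, although the authors had scaled every array by 1 factor. The part of these differences in the results was not tested.

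**Figure D1:**
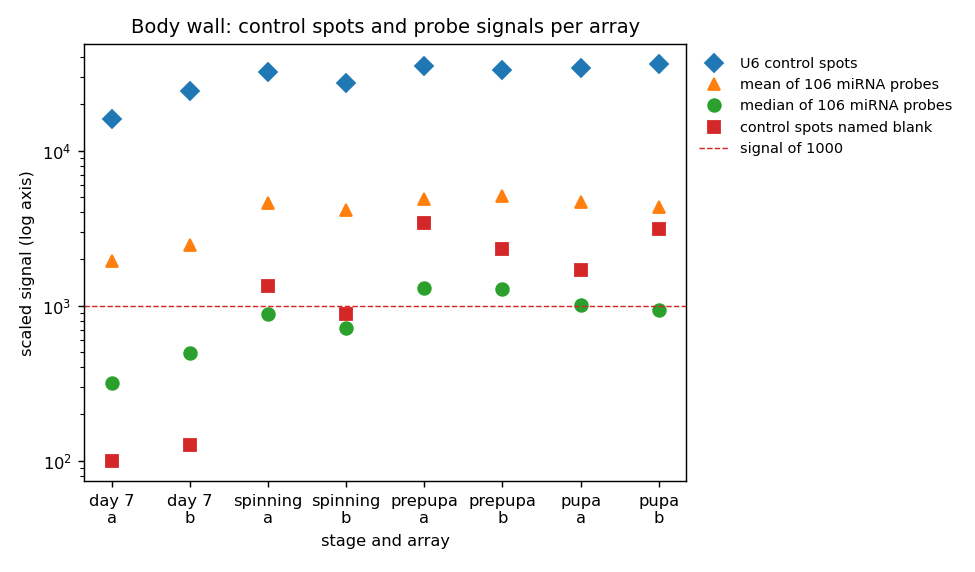
Scaled signal (log axis) of the U6 control spots, the control spots named blank, and the mean and the median of the 106 miRNA probes on each of the 8 body wall arrays. The blank spots lie below the median probe in day 7 larvae (99 and 127 against 317 and 492) and above it on all 6 later arrays.

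The names of the arrays carry a code that was taken as a session, since the sources do not say whether it marks hybridization or scanning. Day 7 larvae stood alone in theirs, so what belongs to this stage and what belongs to its session cannot be told apart. Spinning larvae and pupae shared a session, as did prepupae and the body wall of day 3 larvae. The slides agreed well within a stage, with a Pearson coefficient across probes of 0.983, 0.988, 0.969 and 0.975. Among probes at 1000 or more the median log2 gap between slides was 0.32 in day 7 larvae, where slide b was the brighter, and 0.14 to 0.21 at the later stages. No such probe differed 2-fold between its slides. Because of this spread, a probe was called higher at a stage only when its dimmer slide there was at least 2-fold above the brighter slide of the other stage. Probes at 1000 or more in at least 1 of the stages compared were examined.

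Of the 3 successive steps, the start of spinning brought the most calls with the scaling of the authors. Of 43 probes examined, 18 were called higher in spinning than in day 7 larvae (41.9%) and 1 was called lower (2.33%). The 18 rose by 2.31-fold to 16.8-fold, with a median of 3.98-fold, where SW-7 and SW-68 had spots near the ceiling of the scanner and give lower bounds. The shift was shared by most probes, since 40 of the 43 had the higher mean in spinning larvae and the median difference was 1.09 on the log2 scale. After each array was centred on its median probe the median difference was 0.08, with 5 probes higher (SW-17, SW-35, SW-40, SW-41 and SW-76) and 3 lower (SW-25, SW-58 and SW-59). After scaling to U6 it was 0.50, with 11 higher and 1 lower.

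SW-41, SW-17 and SW-35 rose most. The signal of SW-41 was 509 and 706 on the slides of day 7 larvae, 10510 and 9641 in spinning larvae, 12226 and 11489 in prepupae and 8490 and 6451 in pupae. That of SW-17 was 605 and 832, then 12718 and 9926, then 15569 and 15291, and then 9236 and 10664. SW-35 gave 976 and 1325, then 14022 and 13968, then 10126 and 10232, and then 8512 and 7900. In all 3 probes every slide of the later stages lay far above both slides of day 7 larvae, and the later slides of the 3 ran from 6451 to 15569. From day 7 to spinning larvae SW-41 was 16.8-fold higher, SW-17 15.8-fold and SW-35 12.3-fold. On the log2 scale these rises were 4.07, 3.99 and 3.62 with the scaling of the authors, 3.48, 3.39 and 3.03 with U6, and 3.06, 2.97 and 2.61 with array medians. By rank among the 106 probes SW-17 went from 38 to 13, SW-41 from 41 to 16 and SW-35 from 30 to 9.

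The fat body, the other tissue with a pupal specimen, had all 4 of its stages in 1 session, which was also that of the spinning larvae and pupae here. Its pupae carry the code FB_1dPu, but their titles say day 2, so their age may differ from that of the body wall pupae. There SW-17 gave 1542 and 1478 in day 7 larvae and 10681 and 12157 in spinning larvae. SW-41 gave 1210 and 1147, and then 10230 and 11538, and SW-35 gave 1286 and 1107, and then 10559 and 12351. Both slides of spinning larvae lay above both of day 7 larvae in these probes. In the midgut their means rose too, from 2578 to 11354 (SW-17), 2141 to 9066 (SW-41) and 3089 to 10136.5 (SW-35). In the silk gland the means went from 3668.5 to 3223.5, 2743 to 2081 and 3198 to 3203 in the same order. The 2-fold rule called 14 of 54 probes higher (25.9%) and 1 lower (1.85%) at this step in the fat body, with a median difference of 0.58. With array medians it called 10 higher and 7 lower (median 0.03), and with U6 9 higher and 3 lower (median 0.19).

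SW-59 was the only probe called lower than in day 7 larvae at any later stage with the scaling of the authors, and with array medians it was 1 of 3 in spinning larvae, 1 of 7 in prepupae and 1 of 10 in pupae. It gave 7790 and 11509 on the slides of day 7 larvae, 3197 and 2637 in spinning larvae, 1050 and 880 in prepupae and 2422 and 2664 in pupae. The slides of the 4 stages did not overlap, save for those of spinning larvae and pupae. The log2 difference was -1.71 at the first step, -1.59 at the second and 1.40 at the third, and -3.30 from day 7 larvae to prepupae. With array medians these were -2.72, -2.30, 1.82 and -5.01, and with U6 they were -2.30, -1.79, 1.36 and -4.09. By rank SW-59 fell from 8 in day 7 larvae to 30 and 67 and stood at 32 in pupae. In prepupae its slides lay below the blank spots, so its level there is a bound from above. In the fat body it gave 10051 and 10276 in day 7 larvae, 1389 and 1300 in spinning larvae, 870 and 806 in prepupae and 1183 and 989 in pupae. The midgut gave 17039 and 17929, then 4073 and 3421, and then 2167 and 1882 in prepupae. In the silk gland it rose at the first step, from 12196 and 11909 to 20567 and 21055, and was at 3864 and 3420 in prepupae.

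**Figure D2:**
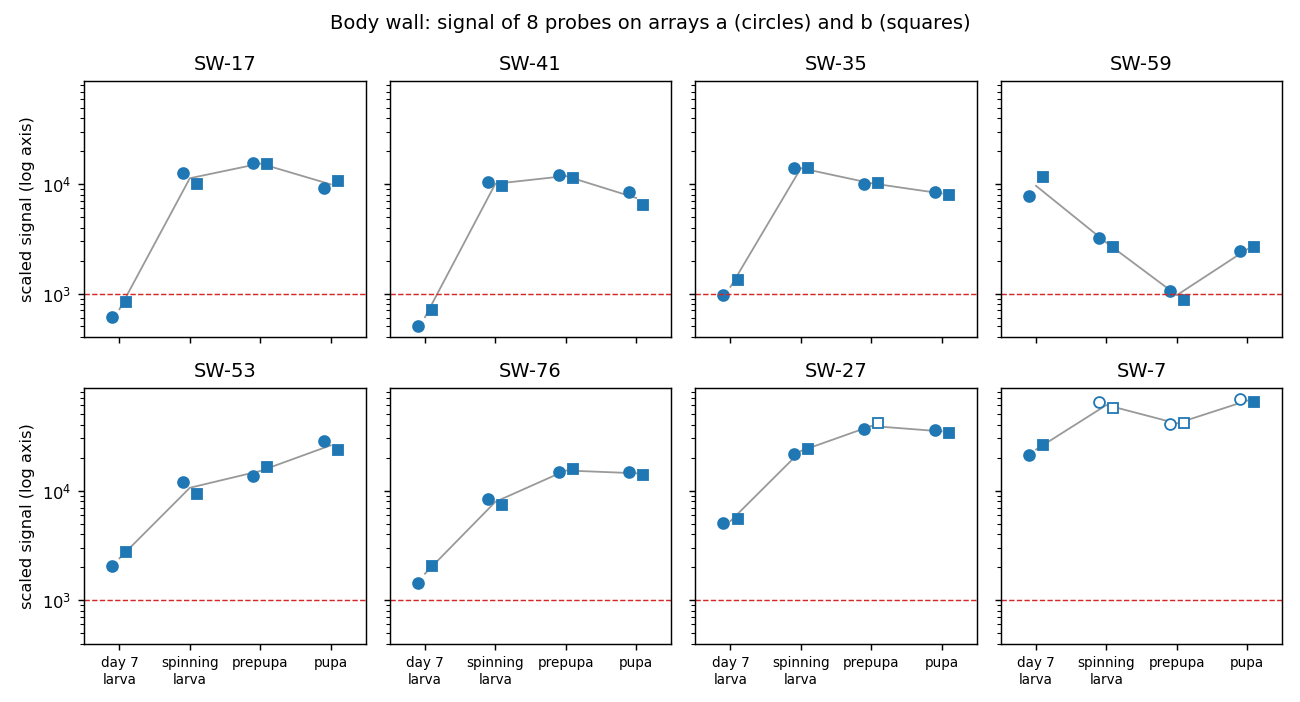
Scaled signal (log axis) of 8 probes at the 4 stages, with slide a as circles and slide b as squares, the mean of the slides as a line, 1000 as a dashed line, and open symbols where at least 1 spot lay near the ceiling of the scanner. SW-17, SW-41 and SW-35 stand more than 10-fold higher in spinning than in day 7 larvae and stay high, SW-59 falls to 1050 and 880 in prepupae, and the mean of SW-53 goes up at each step with this scaling.

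From spinning larvae to prepupae 8 of 64 probes were called higher (12.5%) and 1 was called lower, SW-59 (1.56%). The median difference was 0.54, and -0.16 with array medians. The 8 were SW-4, SW-54, SW-56, SW-60, SW-75, SW-94, SW-98 and SW-105. SW-54 had the largest difference, 3.25 on the log2 scale. It gave 367 and 262 in day 7 larvae, 261 and 112 in spinning larvae, 1690 and 1571 in prepupae and 528 and 646 in pupae. SW-98 gave 271 and 503, then 571 and 115, then 1570 and 1526, and then 1011 and 854, a difference of 2.60. SW-105 (2.52), SW-60 (2.22) and SW-94 (1.93) had the same shape, with a peak of 1467 to 2017 on the slides of prepupae. These 5 probes were dim, and none of them lay above the blank spots of its array in prepupae.

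SW-75 was the one probe of the 8 above the blank spots in prepupae. It gave 2042 and 2629 in day 7 larvae, 4944 and 4091 in spinning larvae, 10074 and 11776 in prepupae and 5369 and 5044 in pupae. Its prepupal slides lay above those of every other stage, by 1.28 on the log2 scale over spinning larvae. With array medians this difference was 0.57, and SW-54, SW-60 and SW-105 were then the probes called higher at this step. Calls in the other direction were then 6 (SW-7, SW-21, SW-35, SW-59, SW-74 and SW-101), of which that of SW-7 cannot be read because its spots lay near the ceiling of the scanner at both stages.

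Prepupal arrays differed from the rest in other controls too. The spots named zip21 gave 35559 and 17581 on their slides a and b, against 3832 to 6901 at the other stages. Those named zip15 gave 11540 and 5261 against 10605 to 18967, so only slide b lay outside the range of the other stages. Slides a and b of prepupae differed about 2-fold in these controls, whereas the median gap of the miRNA probes was 0.16. What the zip spots hold is not stated.

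Between prepupae and pupae little was called. Of 68 probes examined, 1 was higher (1.47%), SW-59, and 1 was lower (1.47%), SW-54, by 1.48 on the log2 scale. The signals as a whole went down, with 54 of the 68 means lower in pupae and a median difference of -0.43. With array medians the median was -0.01, and SW-7, SW-26 and SW-59 were called higher and none lower, SW-7 from spots near the ceiling in prepupae. Neither SW-59 nor SW-54 lay above the blank spots on both slides of either stage, and above the blank spots 0 probes were called in either direction.

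Set against day 7 larvae, 41 of 64 probes were higher in prepupae (64.1%) and 23 of 50 in pupae (46.0%), and SW-59 alone was lower (1.56% and 2.0%). The median differences were 1.78 and 1.28. With array medians these were 0.07 and -0.02, with 4 probes higher and 7 lower in prepupae and 7 higher and 10 lower in pupae. When only probes above the blank spots were counted, 17 were higher in prepupae and 15 in pupae. Over the 68 probes at 1000 or more at some stage, 53 had their lowest mean in day 7 larvae and 47 their highest in prepupae. With array medians the lowest mean lay in day 7 larvae for 21 and the highest in prepupae for 15.

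**Figure D3:**
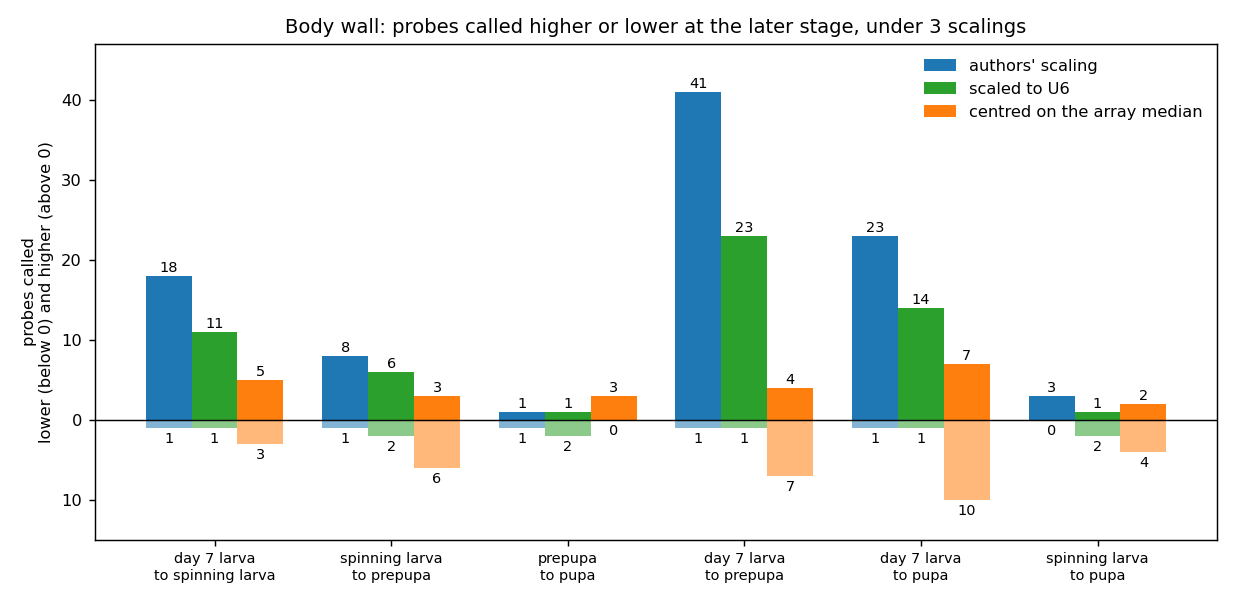
Number of body wall probes called higher (bars above 0) or lower (bars below 0) at the later stage of each of the 6 pairs, with the scaling of the authors, with U6 and with array medians. From day 7 larvae to prepupae the scaling of the authors gives 41 higher and 1 lower, U6 gives 23 and 1, and array medians give 4 and 7.

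Of the 68 probes at 1000 or more at some stage, 14 were called higher than in day 7 larvae at all 3 later stages: SW-1, SW-9, SW-17, SW-20, SW-22, SW-27, SW-30, SW-35, SW-40, SW-41, SW-53, SW-72, SW-73 and SW-76. Their differences ran from 1.35 to 4.44 on the log2 scale. The single comparisons called 18 of 43, 41 of 64 and 23 of 50 probes higher. All 3 comparisons used the same day 7 specimen, which stood alone in its session, so they do not repeat each other. Of the 14, 11 lay above the blank spots at all 3 later stages, SW-22, SW-30 and SW-73 being the dim ones, and 7 reached 10000 at a later stage. With array medians SW-17, SW-35, SW-41 and SW-76 were called at all 3.

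SW-53 had its highest signal in pupae. It gave 2050 and 2759 in day 7 larvae, 11997 and 9236 in spinning larvae, 13741 and 16501 in prepupae and 28507 and 23347 in pupae. Both slides of each stage lay above both of the stage before, but of the single steps only the first was called, and with array medians the step from spinning larvae to prepupae was -0.19. In pupae it was 10.8-fold above day 7 larvae, and its rank went from 20 to 15, 13 and 4. On the log2 scale the difference from day 7 larvae to pupae was 3.44, 2.60 with U6 and 2.14 with array medians. SW-76 gave 1438 and 2044, then 8349 and 7448, then 14902 and 15661, and then 14928 and 13879. It was called higher at the first step and against day 7 larvae at every later stage, and in pupae it was 8.40-fold above them. SW-27 gave 5037 and 5497, then 21841 and 24248, then 36853 and 41148, and then 36024 and 33527. It was at least 7.40-fold above day 7 larvae in prepupae, where 2 spots of slide b lay near the ceiling of the scanner. SW-9 gave 5080 and 6276, 20725 and 20823, 24196 and 29494, and 18363 and 22945. SW-40 was lower and flat after the first step, at 723 and 1071 in day 7 larvae and 3831 to 4628 on the later slides.

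SW-26, SW-70 and SW-44 were dim probes that stood highest in pupae. SW-26 gave 198 and 342 in day 7 larvae, 928 and 786 in spinning larvae, 956 and 982 in prepupae and 1875 and 1796 in pupae. SW-70 gave 276 and 352, then 648 and 521, then 1136 and 965, and then 1644 and 1464. SW-44 gave 572 and 711, then 1124 and 848, then 1407 and 1783, and then 2800 and 2704. Both pupal slides of each of the 3 lay above all slides of its other stages. None of the 3 lay above the blank spots on both slides at any stage but day 7.

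Spinning larvae and pupae, which shared a session, offer the one comparison of body wall stages within it. Of 51 probes, 3 were higher in pupae (SW-44, SW-60 and SW-70, 5.88%) and 0 were lower (0.0%). The median difference was 0.00. SW-44 was 2.82-fold higher, SW-60 3.07-fold and SW-70 2.67-fold, and none of the 3 lay above the blank spots on both slides of pupae. With array medians SW-44 and SW-70 were called higher, and SW-6, SW-21, SW-52 and SW-69 lower.

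Some probes bright in day 7 larvae did not share the general rise. SW-25, at 13418 and 17854 in day 7 larvae, gave 13297 and 11331 in spinning larvae, 20341 and 20869 in prepupae and 17458 and 14926 in pupae. SW-58 gave 12990 and 15272, then 11335 and 10247, then 19384 and 21244, and then 15231 and 13616. Neither was called in any of the 6 comparisons with the scaling of the authors. With array medians SW-25 stood lower than in day 7 larvae by 1.35, 1.30 and 1.24 at the 3 later stages (log2 differences of -1.35, -1.30 and -1.24). With U6 these differences were -0.93, -0.38 and -0.78. SW-45, SW-21 and SW-69, chosen with SW-25 and SW-58 after their values were seen, were called lower in pupae than in day 7 larvae with array medians, at -1.48, -1.26 and -1.70, against -0.18, 0.04 and -0.39 with the scaling of the authors. SW-74 gave 9792 and 14416, then 24725 and 23605, then 10756 and 12192, and then 18703 and 18710. Its slides at both stages of the shared session lay above all slides of the other stages.

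SW-7, the miR-1 probe, gave 21348 and 26121 in day 7 larvae, 64802 and 56391 in spinning larvae, 40696 and 41539 in prepupae and 68529 and 64401 in pupae. All 3 of its spots lay near the ceiling of the scanner, at net signals of 64000 or more, on both slides of spinning larvae and prepupae, and so did 1 spot on slide a of pupae. Near the ceiling the scaled signal follows the scaling factor, which was 0.998 and 0.868 on the slides of spinning larvae and 0.629 and 0.646 on those of prepupae, so the order of these stages cannot be read. Against day 7 larvae SW-7 was called higher in spinning larvae, by at least 2.56-fold, and in pupae, by at least 2.81-fold, with the scaling of the authors. With array medians neither difference reached the fold. The difference was 0.34 on the log2 scale in spinning larvae, a bound that says nothing of its size, and 0.19 in pupae. On slide b of pupae no spot lay near the ceiling, and slide b alone gave 1.30 from day 7 larvae to pupae with the scaling of the authors. SW-68, the second brightest probe in day 7 larvae, gave 18958 and 22970, then 47488 and 49115, then 29206 and 37245, and then 39733 and 37415, with 1 spot near the ceiling in spinning larvae.

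A trend over the 4 stages was tested with limma on all 14 specimens of the metamorphosis experiment (body wall, fat body, midgut and silk gland). The fit had an intercept and a slope per stage step for each tissue. Midgut and silk gland had no pupal specimen, so their slopes end at prepupae. Of 83 probes tested, 5 had a positive body wall slope past an adjusted p of 0.05 (6.02%) and 0 a negative one (0.0%). These were SW-53 with 1.08 per step (SE 0.27), SW-76 with 1.02 (SE 0.29), SW-27 with 0.89 (SE 0.27), SW-26 with 0.86 (SE 0.24) and SW-70 with 0.78 (SE 0.23), each with a limma adjusted p of 0.0441. SW-26 and SW-70 were dim and did not lie above the blank spots on both slides of any later stage, while the blank spots themselves were brighter there. SW-27 had 2 spots near the scanner ceiling in prepupae. At an unadjusted p under 0.05 there were 32 positive slopes and 0 negative ones, against 6 and 8 with array medians. The median slope of all 83 probes was 0.475 in the body wall, 0.150 in the fat body, -0.248 in the midgut and -0.037 in the silk gland, and with array medians 0.0145, -0.0222, 0.0640 and 0.0267. Without the pupal body wall specimen the body wall median was 0.859 with the scaling of the authors. SW-17 (1.19, SE 0.39, adjusted p = 0.0802) and SW-41 (1.11, SE 0.40, adjusted p = 0.0842), which moved mostly at the first step, did not pass, nor did SW-59 (-0.73, SE 0.37, adjusted p = 0.140).

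With array medians, with U6, with session as a fixed or a random block, or without the day 7 specimen, 0 probes passed in either direction. The slope of SW-53 was then 0.62 with array medians, 0.81 with U6, 1.00 with session as a random block and 0.65 without day 7 larvae. All 5 probes still passed with slide a alone, without spinning larvae (9 rose) and without the pupal specimen (28 rose and 1 fell), and without prepupae 2 rose.

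Whether a trend was steeper in the body wall than in the other tissues was tested in the same limma fit. The stage ranges compared are unlike, since the slopes of midgut and silk gland end at prepupae. The fat body slope includes pupae whose titles give another age than those of the body wall pupae. Of 83 probes, 0 had a body wall slope that differed from the mean slope of fat body, midgut and silk gland at an adjusted p of 0.05 (0.0%). The smallest adjusted p was 0.0785, for SW-26, whose difference was 1.16 (SE 0.31). This dim probe did not lie above the blank spots on both slides of any later body wall stage. At an unadjusted p under 0.05 there were 18 probes, all steeper in the body wall, whereas with array medians 1 was steeper and 6 were shallower there. Without the pupal body wall specimen 0 passed, and 39 were steeper and 0 shallower at an unadjusted p under 0.05 with the scaling of the authors. Against the fat body alone 0 passed (0.0%), with a smallest adjusted p of 0.720 and 4 probes at an unadjusted p under 0.05. SW-27 had nearly the same slope in both, 0.89 in the body wall and 0.89 in the fat body. SW-53 had 1.08 and 0.26, and SW-76 1.02 and 0.26, differences of 0.82 (SE 0.38) and 0.75 (SE 0.41) that did not pass.

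**Figure D4:**
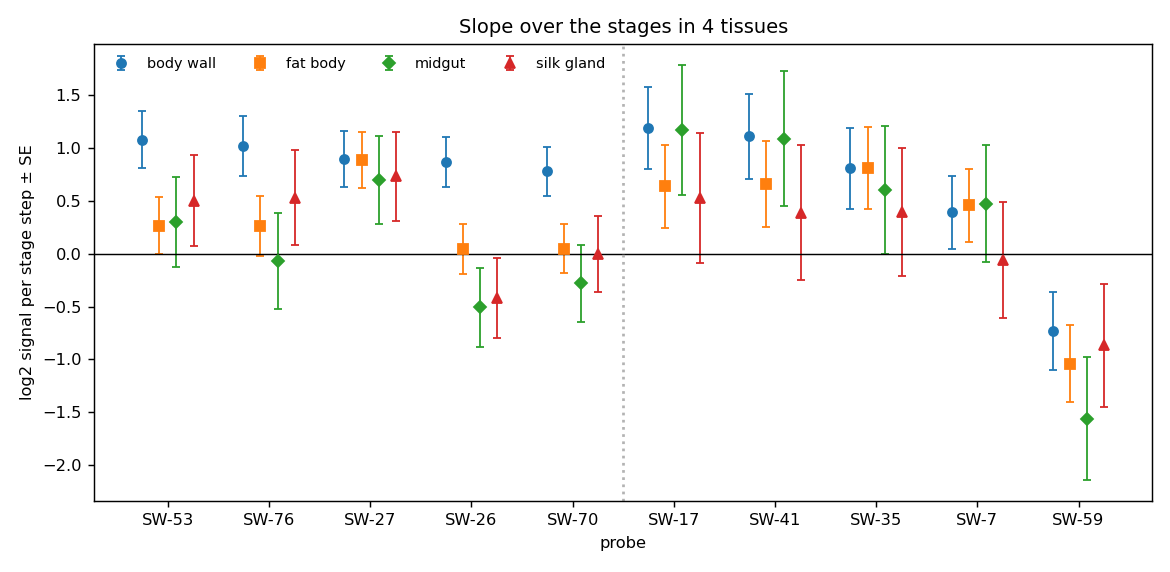
Slope of the log2 signal per stage step, with its standard error from limma, for 10 probes in 4 tissues. The 5 probes left of the dotted line passed in the body wall (0.78 to 1.08 per step), and SW-59 is the only one of the 10 with a negative slope in all 4 tissues. Its silk gland signal rose at the first step before it fell. The slopes of midgut and silk gland end at prepupae. SW-26 and SW-70 did not lie above the blank spots on both slides of any later body wall stage, and SW-27 had spots near the scanner ceiling in prepupae.

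Prepupae and the body wall of day 3 larvae shared a session, but their arrays were scaled by different rules, so only values centred on the array median can be set side by side. Of 74 probes, 13 were higher in prepupae than in day 3 larvae on all slides by 2-fold (17.6%) and 1 was lower (1.35%). SW-17, SW-41, SW-27, SW-53, SW-76 and SW-35 were among the 13, with log2 differences of 2.74, 3.02, 3.38, 2.72, 2.59 and 1.68. SW-54, SW-60 and SW-105 were also among the 13, but none of them lay above the blank spots in prepupae. The lower one was SW-59, at -2.81, and its prepupal slides lay below the blank spots. Between day 3 and day 7 larvae, which did not share a session, SW-17 differed by 0.01, SW-35 by 0.23 and SW-41 by 0.42, whereas SW-76 was 1.15, SW-53 1.77, SW-27 2.20 and SW-59 2.20 higher on day 7.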

How the data were processed

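Small RNA was labelled with Cy3 and hybridized to slides a and b. The authors scanned the slides with a LuxScan 10K-A, subtracted the local background, gave negative spots the value 10, replaced outliers among the spots and scaled each array with a single factor (0.629 to 1.45 on the body wall arrays), which their methods call a global median. The deposited values are these intensities on a linear scale, as the mean of the 3 spots of a probe. The formula behind the factor could not be recovered, and array means (1932 to 5126) and medians still differed. Arrays give no counts, and their number limits the precision.

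A floor of 100 was applied before log2. Slides were averaged to 1 value per specimen. Stage pairs were called by the 2-fold rule between the nearest slides, without a test. Slopes over the stages were fitted with limma 3.58.1 in R 4.3.3 (lmFit, eBayes with a variance trend, Benjamini-Hochberg) over 83 probes (1000 or more in at least 3 of 14 specimens). On simulated data this procedure recovered 2.8% of body wall slopes of 0.5 per step, 73.9% of 1.0 and 93.6% of 1.5. Slopes near the body wall median of 0.475 may often be missed, so a count of 0 does not show that slopes are absent or equal. The simulated residuals were independent, whereas the data had a correlation of 0.357 within sessions. Only a part of the simulated probes had a body wall slope, of random sign, whereas 75 of the 83 slopes in the data were positive. The recovered shares may therefore not carry over to these data, and slope differences between tissues were not simulated. Specimens are not stated to come from separate cultures, so p-values measure only the spread around the fitted lines. Tables were made with pandas 2.3.3 and numpy 2.4.6 in Python 3.11.15.

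The probes named are those with the largest differences in each stage pair and slope (up to 5 in each direction), those called in opposite directions at successive steps, and SW-7. Probes named beyond this rule were chosen after their values were seen. The stages, the probes and the lists were chosen with earlier results of these data known. Lists of miRNAs by function were not used here, since only SW-7 could be tied to a name. Alternatives concerned the scaling (array medians over all probes or over the 30 probes at 1000 or more at all stages, U6, net signals), the floor, the filters, the fold, single slides, the session and each specimen. Those with U6, with the blank spots, and with array medians and session as a random block together were added after the data had been seen. For the slope differences between tissues, further settings were not planned either. These were centring on the bright probes, net signals, a floor of 10, single slides and the leaving out of a specimen.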

Additional observations from a re-analysis of the deposited data

Results flagged for a closer look

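In 8 cases a probe was called in one direction in the body wall and in the opposite direction in another tissue between the same stages, with the scaling of the authors. In the body wall comparisons concerned, 18 of 43, 8 of 64 and 41 of 64 probes were called higher. With array medians only the body wall call of SW-60 from spinning larvae to prepupae remained, and the other tissues are not given with that scaling. These differences between tissues were not tested, each tissue having 1 specimen per stage. The day 7 body wall shared its session with no other tissue, while spinning and prepupal silk gland shared theirs with the body wall of the same stage, and the midgut did not. From day 7 to spinning larvae SW-68 was 1.21 higher in the body wall on the log2 scale, a lower bound because of 1 spot near the scanner ceiling, and changed by -2.41 in the silk gland. From spinning larvae to prepupae SW-60 was 2.22 higher in the body wall and changed by -1.68 in the midgut. From day 7 larvae to prepupae SW-62 was 1.72 higher and SW-72 2.12 higher in the body wall, with -1.46 and -1.35 in the silk gland. Over the same span SW-4 was 1.85 higher, SW-9 2.24, SW-33 1.97 and SW-60 1.82, with -1.35, -1.58, -1.76 and -2.60 in the midgut. SW-68, SW-72 and SW-9 lay above the blank spots of the later body wall arrays, whereas SW-4, SW-33, SW-60 and SW-62 lay below them in prepupae.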

How the results depend on the processing

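With 1 specimen per stage the counts describe these arrays, and the cause of a moved count was not tested. For the 17 probes named by the rule the largest called difference, and for 5 of them the slope, kept its sign under every setting tried. Of 136 recomputed differences of named probes 82 moved by more than the spread between slides, and of 95 recomputed slopes 69 lost significance. Signals near the blank spots or near the scanner ceiling limit what can be read.

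Calls are given in the order day 7 to spinning larvae, spinning larvae to prepupae, prepupae to pupae, day 7 larvae to prepupae, day 7 larvae to pupae and spinning larvae to pupae. The values reported were 18, 8, 1, 41, 23 and 3 higher and 1, 1, 1, 1, 1 and 0 lower. Array medians gave 5, 3, 3, 4, 7 and 2 higher and 3, 6, 0, 7, 10 and 4 lower. Centring on the 30 bright probes gave 3, 6, 1, 6, 7 and 4 higher and 6, 2, 0, 6, 10 and 0 lower. Net signals gave 30, 29, 0, 61, 27 and 0 higher and 0, 0, 44, 1, 1 and 4 lower. U6 gave 11, 6, 1, 23, 14 and 1 higher and 1, 2, 2, 1, 1 and 2 lower. A floor of 1000 gave 14, 2, 1, 20, 17 and 1 higher and 1, 1, 0, 1, 1 and 0 lower, and a filter at 2000 gave the same counts. Slide a alone gave 28, 11, 2, 49, 32 and 5 higher and 1, 2, 6, 1, 1 and 1 lower. Slide b alone gave 20, 24, 1, 45, 23 and 5 higher and 1, 1, 7, 1, 1 and 2 lower. A fold of 1.5 gave 26, 24, 5, 52, 31 and 7 higher and 1, 2, 12, 1, 1 and 6 lower. A fold of 3 gave 8, 3, 0, 25, 14 and 0 higher and 0, 0, 0, 1, 0 and 0 lower. A fold of 2 between slide means gave 24, 16, 1, 48, 30 and 5 higher and 1, 2, 7, 1, 1 and 1 lower. Without a filter on dim probes there were 22, 9, 3, 55, 41 and 5 higher and 1, 2, 2, 1, 1 and 0 lower. Above the blank spots there were 17, 1, 0, 17, 15 and 0 higher and 1, 1, 0, 1, 1 and 0 lower.

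The 5 positive slopes remained 5 in number with slide a alone, were 4 when probes were filtered on the body wall, and became 3 with a floor of 1000, 2 without a variance trend and 0 with a floor of 10, net signals, U6, slide b alone, no filter on dim probes, either centring (also with session as a random block), either session block, or the body wall alone. Leaving out a specimen gave 0 (day 7 larvae) to 28 (pupae), the latter with 1 negative slope. The slope of 1 probe differed from the other tissues with slide a alone, without a variance trend and without prepupae, against 0 otherwise. For this difference slide a alone and the run without prepupae were not planned. No paired analysis was possible because slides a and b hold the same RNA and were averaged to 1 specimen per stage, and the specimens carry no replicate number.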
